A study of Mus musculus with 12 samples.

Results

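The interleukin-1 (IL-1) family was followed through mouse ear skin as 10 genes picked by name: the agonists Il1a, Il1b, Il36a, Il36b, Il36g, Il18 and Il33, the antagonists Il1rn and Il36rn, and the decoy receptor gene Il1r2. They are 10 of the 55416 Ensembl gene identifiers in each library's table, all 10 were found, 4 of them under older names (Il1f6, Il1f8, Il1f9 and Il1f5 for Il36a, Il36b, Il36g and Il36rn), and all 10 passed the filter on low counts. Bulk mRNA was sequenced from ear skin of C57BL/6 mice aged 8 to 12 weeks, in 12 libraries titled day 6, which form 4 groups of 3. IMQ_GW3965 received imiquimod and GW3965, which activates the oxysterol-sensing liver X receptors (LXR), injected into the peritoneum at 20 mg/kg. IMQ_Troglitazone received imiquimod and troglitazone, an agonist of the nuclear receptor PPARγ, injected at 150 mg/kg. IMQ_Veh received imiquimod and the DMSO vehicle. UTX_Veh carries the vehicle but no imiquimod in its label, and the labels do not spell out UTX. Imiquimod activates Toll-like receptor 7 and, rubbed on mouse skin, provokes inflammation like that of psoriasis. It was given daily to the ears as 20.8 mg of Aldara cream, which holds 5% imiquimod by weight. Both drugs were injected once a day from day 3. A cream without imiquimod is not named for UTX_Veh, so the cream base and imiquimod cannot be told apart.

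IL-1α and IL-1β bind the IL-1 receptor, which signals through MyD88 and IRAK kinases to NF-κB. IL-36α, IL-36β and IL-36γ bind a separate receptor, encoded by Il1rl2, that feeds the same pathway and is used heavily by keratinocytes in psoriasis. Il1rn and Il36rn encode antagonists that occupy these receptors without signalling, and the Il1r2 protein captures IL-1 without signalling. IL-1β and IL-18 are made as inactive precursors that caspase-1 cuts inside inflammasomes, whereas IL-33 is held in the nucleus of barrier cells and signals through ST2 once released. These later steps act on protein, so the mRNA levels below do not measure active cytokine.

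Of the 10 genes, 7 lie on chromosome 2. Il36b, Il36g, Il36a, Il36rn and Il1rn occupy 198334 bases (24153161 to 24351494, GRCm38), and Il1a (129299610 to 129309972) and Il1b (129364570 to 129371139), both on the minus strand, occupy 71530 bases farther along. Il1r2 lies on chromosome 1 (40074079 to 40125231), Il18 on chromosome 9 (50554827 to 50581840) and Il33 on chromosome 19 (29925114 to 29960718). The 250 bases before the start of 3 chromosome 2 genes are shown, from RefSeq on GRCm38.p6: Il1b (chr2:129371140-129371389, minus strand), the member that was lower with both drugs; its neighbour Il1a (chr2:129309973-129310222, minus strand), whose difference with each drug did not pass the test; and Il36g (chr2:24186226-24186475, plus strand), an IL-36 agonist. Capitals mark matches to the core promoter box TATAAA, to the AP-1 motif TGANTCA, to the C/EBP motif TTNNGNAA and to the STAT motif TTCNNNGAA.
Il1b: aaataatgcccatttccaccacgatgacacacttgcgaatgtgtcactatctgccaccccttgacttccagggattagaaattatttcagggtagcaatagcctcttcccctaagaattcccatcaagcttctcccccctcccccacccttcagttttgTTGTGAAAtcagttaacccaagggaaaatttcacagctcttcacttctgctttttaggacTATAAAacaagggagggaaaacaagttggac
Il1a: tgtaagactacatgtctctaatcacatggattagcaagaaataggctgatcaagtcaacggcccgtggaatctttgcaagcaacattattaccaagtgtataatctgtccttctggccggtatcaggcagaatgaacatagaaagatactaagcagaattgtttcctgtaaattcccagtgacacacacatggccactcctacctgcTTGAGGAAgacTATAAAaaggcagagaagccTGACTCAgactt
Il36g: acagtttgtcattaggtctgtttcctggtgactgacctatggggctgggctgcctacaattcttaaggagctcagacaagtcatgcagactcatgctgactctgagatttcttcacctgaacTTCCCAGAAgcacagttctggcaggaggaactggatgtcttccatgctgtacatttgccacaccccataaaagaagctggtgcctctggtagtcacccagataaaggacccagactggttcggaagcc
Il1b and Il1a both held a TATAAA, which ended 26 and 27 bases before their starts, and a TTNNGNAA upstream of it, with no overlap between motifs. Il1a also had a TGANTCA at positions -12 to -6, counted from the start, and the only match in Il36g was a TTCNNNGAA at -128 to -120. On either strand, TATAAA was found in 12.4% of the 32851 RefSeq promoter windows of the same length, TGANTCA in 6.75%, TTNNGNAA in 36.8% and TTCNNNGAA in 7.02%. A loose NF-κB consensus was in 45.8% of windows and in none of these 3. Perfect copies of the direct repeats that LXR and PPAR proteins can bind were rare, the LXR repeat (DR4) in 0.0152% of windows and the PPAR repeat (DR1) in 0.0335%, and none of the 13 windows of 9 members held either. A match or its lack describes only these letters in this window. Il36a had no sequence here and is named only.

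Levels between libraries are given as CPM, expected counts scaled by TMM to a common library size, and levels between genes as TPM, which also divides by transcript length. Total expected counts were 18242074 to 25641602 per library. A gene was counted as changed at an edgeR quasi-likelihood p, adjusted by Benjamini-Hochberg over 17130 genes, under 0.05, and log2 fold changes are given ± SE with n = 3 per group. Some libraries stood apart: in IMQ_GW3965 replicate 3 the feature ENSMUSG00000119584 took 11.6% of counts, and IMQ_Veh replicate 3 held the most fibroblast and skeletal muscle RNA of its group. IMQ_Veh replicate 2 held the least adipocyte and endothelial marker RNA of that group (41.22 and 56.42 CPM) and the most sebaceous gland marker RNA (669.8 CPM). Results below are named without them where they matter. Nothing in the labels ties each replicate to its own animal, so the p-values reflect only the spread among these samples, which may be technical. Keratinocyte markers were abundant in every library, as the skin label requires.

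In IMQ_Veh, 8 of the 10 members rose and 1 fell against UTX_Veh, while 61.9% of all genes tested changed, 33% of those tested being higher and 28.9% lower. The median log2 difference of the members was 2.31, beside 0.01 over all genes. Il1b had the largest fold, Il36a the next, and the other 6 risen members rose 2.8- to 5.5-fold. Il1r2 fell and Il18 did not pass the test.

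**Figure D1:**
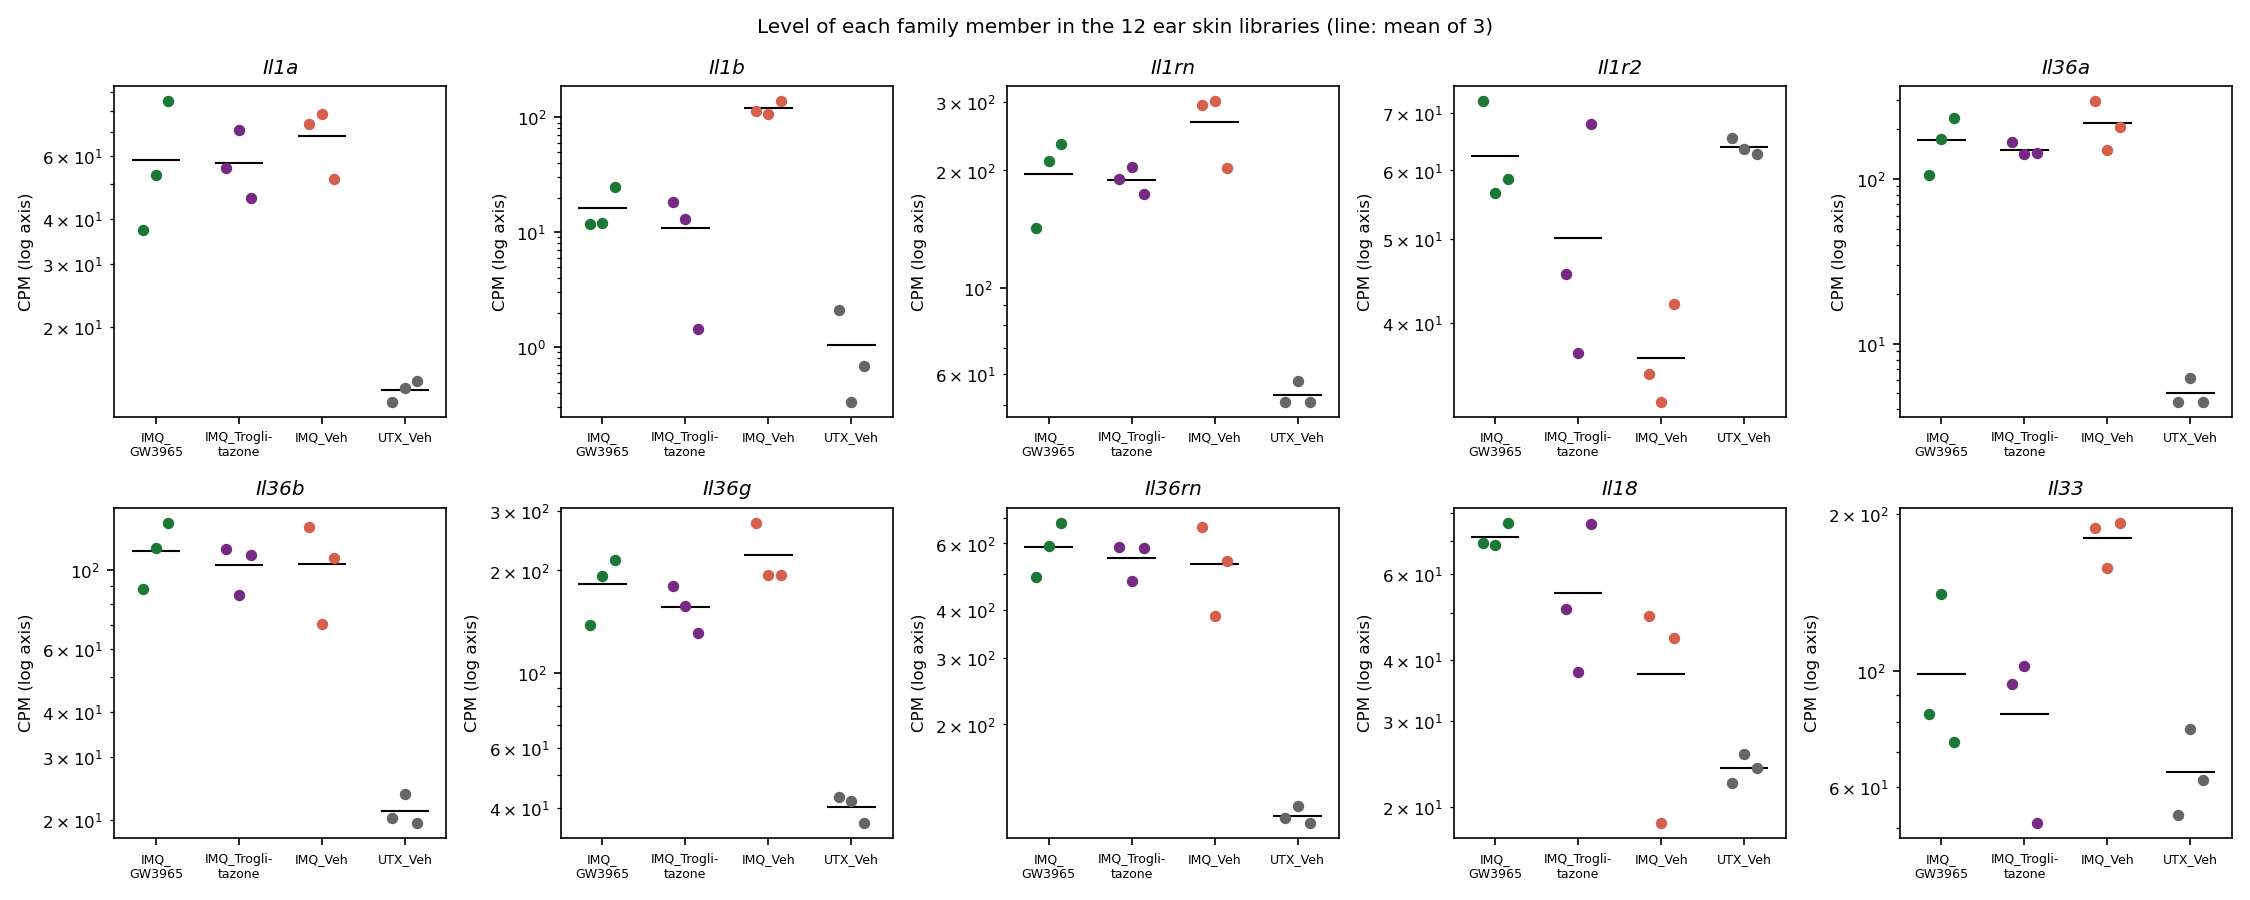
Level of each of the 10 genes in CPM (vertical log axis) in the 12 libraries, by group, with dots for libraries and a line at the mean of 3. Il1b is at 107.0 to 138.5 CPM in IMQ_Veh and at 24.67 CPM or less in every other library, whereas the IL-36 genes are high in all 3 imiquimod groups and low in UTX_Veh.

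The IL-1 receptor agonists took different courses. Il1b had 11.89, 12.06 and 24.67 CPM in IMQ_GW3965, 18.2, 13.14 and 1.44 CPM in IMQ_Troglitazone, 114.0, 107.0 and 138.5 CPM in IMQ_Veh, against 2.08, 0.33 and 0.68 CPM in UTX_Veh. Every IMQ_Veh library lay above every library with a drug, and IMQ_Troglitazone replicate 3, with 35 expected counts, lay inside the UTX_Veh range of 8 to 53 expected counts. Il1b was 113.6-fold higher in IMQ_Veh than in UTX_Veh (log2 6.83 ± 0.83, edgeR adjusted p = 3.64e-05), or log2 7.87 without UTX_Veh replicate 1. In bulk skin, fewer cells of a type and less RNA per cell cannot be told apart.

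Against IMQ_Veh, Il1b was 7.45-fold lower with GW3965 (log2 -2.90 ± 0.65, edgeR adjusted p = 0.0273). It was 11-fold lower with troglitazone (log2 -3.46 ± 0.66, edgeR adjusted p = 0.0136), and limma-voom put this at log2 -4.12 (adjusted p = 0.00628). The direction held under all 18 alternatives of each comparison, and the call did not. The file names hold a field, L001 or L009, here called the lane field, that the labels do not explain. It was L009 in IMQ_Veh replicates 1 and 3, in UTX_Veh replicate 3 and in replicate 2 of each drug group. With GW3965 the call was lost with the lane field as a covariate (log2 -2.92, edgeR adjusted p = 0.0514). The call was lost too with that field and the replicate block together (-2.85, 0.0582). It was also lost without IMQ_Veh replicate 1 (log2 -2.94, edgeR adjusted p = 0.0755) and without IMQ_GW3965 replicate 1 (-2.71, 0.125), replicate 2 (-2.73, 0.0832) or replicate 3 (-3.32, 0.0510). With troglitazone it was lost without IMQ_Veh replicate 1 (log2 -3.49, edgeR adjusted p = 0.0512) and in a fit of only those 2 groups (log2 -3.46, edgeR adjusted p = 0.100). The log2 difference was -4.06 without IMQ_Troglitazone replicate 1 and -2.93 without replicate 3.

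Even so, Il1b remained above UTX_Veh with either drug: 15.2-fold with GW3965 (log2 3.93 ± 0.80, edgeR adjusted p = 0.00175) and 10.3-fold with troglitazone (log2 3.37 ± 0.80, edgeR adjusted p = 0.00550). Without UTX_Veh replicate 1 these were log2 4.97 and 4.41, and troglitazone was at log2 2.78 without IMQ_Troglitazone replicate 1. By limma-voom the troglitazone difference was log2 3.06 with an adjusted p of 0.0556. The 2 drug groups share the IMQ_Veh and UTX_Veh libraries, so their values are given side by side and are not independent.

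Il1a, the agonist that keratinocytes store, had 37.29, 53.17 and 85.09 CPM in IMQ_GW3965, 55.61, 70.61 and 45.64 CPM in IMQ_Troglitazone, 73.35, 78.54 and 51.69 CPM in IMQ_Veh, against 12.42, 13.58 and 14.23 CPM in UTX_Veh. The 3 imiquimod groups overlapped and all lay above UTX_Veh. It rose 5.06-fold in IMQ_Veh against UTX_Veh (log2 2.34 ± 0.28, edgeR adjusted p = 3.13e-05), and its differences from IMQ_Veh were log2 -0.22 ± 0.26 with GW3965 and -0.25 ± 0.26 with troglitazone (edgeR adjusted p = 0.644 and 0.568). The first of these was 0.03 without IMQ_GW3965 replicate 1. It was -0.74, with an edgeR adjusted p of 0.0313, without replicate 3 of both IMQ_Veh and IMQ_GW3965, which stood apart.

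Il1rn, the antagonist gene, followed Il1a. It had 142.2, 211.8 and 233.6 CPM in IMQ_GW3965, 190.7, 203.6 and 174.3 CPM in IMQ_Troglitazone, 295.3, 301.6 and 202.4 CPM in IMQ_Veh, against 50.9, 57.39 and 50.97 CPM in UTX_Veh. It rose 5.02-fold in IMQ_Veh against UTX_Veh (log2 2.33 ± 0.19, edgeR adjusted p = 3.01e-06). Its differences from IMQ_Veh were log2 -0.45 ± 0.18 with GW3965 and -0.49 ± 0.18 with troglitazone (edgeR adjusted p = 0.148 and 0.106). Without IMQ_Veh replicate 3, the lowest of its group, both passed the test (log2 -0.61 and -0.65, edgeR adjusted p = 0.0236 and 0.0152).

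Il1r2, the decoy receptor gene, ran the other way. It had 72.19, 56.49 and 58.59 CPM in IMQ_GW3965, 45.58, 36.86 and 67.96 CPM in IMQ_Troglitazone, 34.86, 32.41 and 42.08 CPM in IMQ_Veh, against 65.49, 63.58 and 62.68 CPM in UTX_Veh. IMQ_Veh lay below both IMQ_GW3965 and UTX_Veh with no overlap, and IMQ_Troglitazone spread across all of them. It fell in IMQ_Veh against UTX_Veh by 0.81 ± 0.19 on the log2 scale (edgeR adjusted p = 0.00312). With GW3965 it was 1.71-fold higher than in IMQ_Veh (log2 0.78 ± 0.19, edgeR adjusted p = 0.0360), and its difference from UTX_Veh was log2 -0.03 with a 95% interval of -0.45 to 0.38. With troglitazone it differed from IMQ_Veh by log2 0.46 ± 0.19 (edgeR adjusted p = 0.139). The GW3965 call was lost without IMQ_Veh replicate 1 or 2 (log2 0.74 and 0.70, edgeR adjusted p = 0.120 and 0.0832) or IMQ_GW3965 replicate 1, 2 or 3 (0.66, 0.84 and 0.83; 0.148, 0.0640 and 0.0642), with the lane field as a covariate (0.72; 0.0709) and in a fit of only those 2 groups (0.79; 0.0704). Without IMQ_Troglitazone replicate 3, Il1r2 was below UTX_Veh with that drug (log2 -0.63, edgeR adjusted p = 0.00604), against -0.35 (adjusted p = 0.148) with it.

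The IL-36 genes were higher in every imiquimod library than in any UTX_Veh library. Il36a, the agonist with the lowest TPM of the 3 in UTX_Veh, had 105.4, 175.1 and 234.9 CPM in IMQ_GW3965, 167.1, 141.7 and 143.3 CPM in IMQ_Troglitazone, 297.1, 148.9 and 205.6 CPM in IMQ_Veh, against 4.44, 6.23 and 4.44 CPM in UTX_Veh. It was 43.1-fold higher in IMQ_Veh than in UTX_Veh (log2 5.43 ± 0.35, edgeR adjusted p = 7.41e-07). Il36b had 88.64, 115.2 and 135.6 CPM in IMQ_GW3965, 114.5, 84.92 and 109.7 CPM in IMQ_Troglitazone, 131.8, 70.62 and 108.2 CPM in IMQ_Veh, against 20.17, 23.66 and 19.53 CPM in UTX_Veh, a rise of 4.90-fold in IMQ_Veh (log2 2.29 ± 0.23, edgeR adjusted p = 9.44e-06). In both genes the 3 imiquimod groups overlapped.

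Il36g, the third of the agonists, had 138.5, 192.8 and 215.0 CPM in IMQ_GW3965, 179.9, 157.3 and 130.7 CPM in IMQ_Troglitazone, 276.8, 194.2 and 194.3 CPM in IMQ_Veh, against 43.04, 41.8 and 36.02 CPM in UTX_Veh. It rose 5.50-fold in IMQ_Veh against UTX_Veh (log2 2.46 ± 0.19, edgeR adjusted p = 2.36e-06). The antagonist gene Il36rn had 488.2, 589.9 and 681.4 CPM in IMQ_GW3965, 586.3, 476.5 and 582.7 CPM in IMQ_Troglitazone, 663.6, 387.3 and 539.2 CPM in IMQ_Veh, against 113.3, 122.0 and 109.8 CPM in UTX_Veh. It rose 4.61-fold in IMQ_Veh (log2 2.20 ± 0.19, edgeR adjusted p = 3.44e-06).

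None of the 4 IL-36 genes passed the test against IMQ_Veh with either drug. With GW3965 the log2 differences were -0.34 ± 0.28 for Il36a, 0.13 ± 0.21 for Il36b, -0.29 ± 0.18 for Il36g and 0.15 ± 0.18 for Il36rn (edgeR adjusted p = 0.476, 0.754, 0.356 and 0.651). With troglitazone they were -0.53 ± 0.28, -0.01 ± 0.21, -0.51 ± 0.18 and 0.05 ± 0.18 in the same order (edgeR adjusted p = 0.239, 0.989, 0.0990 and 0.881). The signs of Il36b and Il36rn changed when single libraries were left out, and Il36g passed with troglitazone without IMQ_Veh replicate 3 (log2 -0.59, edgeR adjusted p = 0.0451). The 95% intervals for Il36rn, -0.24 to 0.54 with GW3965 and -0.34 to 0.44 with troglitazone, do not reach 1 unit of log2 in either direction. Those for Il36a were wider, -0.95 to 0.27 with GW3965 and -1.14 to 0.08 with troglitazone, and the latter passes 1 unit below 0. For Il36g they were -0.69 to 0.12 and -0.91 to -0.11, and for Il36b -0.34 to 0.59 and -0.47 to 0.46.

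The summed level of the 8 keratinocyte markers was higher in the imiquimod groups, as the IL-36 genes were, and its members did not move together. The sum was 55490 to 72960 CPM in IMQ_GW3965, 53330 to 65030 CPM in IMQ_Troglitazone, 55120 to 78750 CPM in IMQ_Veh and 20090 to 23150 CPM in UTX_Veh. Of the 8, 6 were higher and 1 lower in IMQ_Veh than in UTX_Veh, beside 33% higher and 28.9% lower over all genes. Krt1, a very abundant keratin gene, had 10600 to 23630 CPM in IMQ_Veh and 796.7 to 1016 CPM in UTX_Veh, whereas Trp63 had 319.8 to 425.0 CPM in IMQ_Veh and 326.2 to 355.5 CPM in UTX_Veh, and Col17a1 had 731.5 to 797.3 CPM in IMQ_Veh and 1845 to 1968 CPM in UTX_Veh. Their part in the rise of the IL-36 genes was not tested. IMQ_Veh replicate 2 gave the lowest IMQ_Veh value of Il1b, Il1r2, Il36a, Il36b, Il36rn, Il18 and Il33, and narrowly of Il36g (194.2 against 194.3 CPM). It gave the highest of Il1a and Il1rn.

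Il18 and Il33 encode the agonists that use neither the IL-1 receptor nor the IL-36 receptor. Il18 had 69.34, 68.76 and 76.5 CPM in IMQ_GW3965, 50.92, 37.83 and 75.88 CPM in IMQ_Troglitazone, 49.28, 18.54 and 44.34 CPM in IMQ_Veh, against 22.37, 25.75 and 24.01 CPM in UTX_Veh. IMQ_Veh straddled UTX_Veh through replicate 2, and IMQ_GW3965 lay above both. The difference of IMQ_Veh from UTX_Veh was log2 0.63 ± 0.31 (edgeR adjusted p = 0.0962), and 0.91 without IMQ_Veh replicate 2 (edgeR adjusted p = 0.00413). Il18 was higher than in UTX_Veh with GW3965 (2.97-fold, log2 1.57 ± 0.32, edgeR adjusted p = 0.00163) and with troglitazone (2.28-fold, log2 1.19 ± 0.31, edgeR adjusted p = 0.00950). Against IMQ_Veh it differed by log2 0.94 ± 0.31 with GW3965 and 0.56 ± 0.31 with troglitazone (edgeR adjusted p = 0.0849 and 0.260). The GW3965 difference passed by DESeq2 (log2 0.93, adjusted p = 0.0271), without a filter on low counts (0.96, edgeR adjusted p = 0.0336) and without IMQ_Veh replicate 3 (1.08, edgeR adjusted p = 0.0462).

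Il33 had 82.86, 140.7 and 73.06 CPM in IMQ_GW3965, 94.55, 102.4 and 51.01 CPM in IMQ_Troglitazone, 188.6, 158.0 and 192.9 CPM in IMQ_Veh, against 52.99, 77.33 and 61.86 CPM in UTX_Veh. IMQ_Veh lay above all other libraries. Il33 rose 2.81-fold in IMQ_Veh against UTX_Veh (log2 1.49 ± 0.28, edgeR adjusted p = 0.000770). With troglitazone it was 2.18-fold lower than in IMQ_Veh (log2 -1.12 ± 0.28, edgeR adjusted p = 0.0330). With GW3965 the difference was log2 -0.86 ± 0.28 (edgeR adjusted p = 0.0785). The troglitazone call was lost without IMQ_Veh replicate 1 (log2 -1.08, edgeR adjusted p = 0.108), without IMQ_Troglitazone replicate 1 (-1.23, 0.0622) or 3 (-0.87, 0.107), and in a fit of only those 2 groups (-1.12, 0.105). The GW3965 difference passed by DESeq2 (log2 -0.87, adjusted p = 0.0215), without a filter on low counts (-0.84, edgeR adjusted p = 0.0390) and without IMQ_GW3965 replicate 2 (-1.21, edgeR adjusted p = 0.0474). Summed fibroblast markers, 7 genes of a cell type that can make IL-33, were at 1065 to 1498 CPM in IMQ_GW3965, 1213 to 1809 CPM in IMQ_Troglitazone, 912.1 to 4406 CPM in IMQ_Veh and 2120 to 3682 CPM in UTX_Veh. The highest group of Il33 was thus the widest in these markers, and their part was not tested.

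Counted over the family, GW3965 gave 1 member higher (Il1r2) and 1 lower (Il1b) than IMQ_Veh, where 6.59% of all genes changed, 3.71% higher and 2.88% lower. Troglitazone gave none higher and 2 lower (Il1b and Il33), where 9.34% of all genes changed, 4.69% higher and 4.65% lower. The members' median log2 difference was -0.25 with GW3965 and -0.37 with troglitazone, beside -0.01 and -0.02 over all genes. Each count ranged from 0 to 4 as single libraries were left out: with GW3965 it was 0 without IMQ_Veh replicate 1 or IMQ_GW3965 replicate 1 or 3, 1 without IMQ_Veh replicate 2 or IMQ_GW3965 replicate 2, and 4 without IMQ_Veh replicate 3. With troglitazone it was 0 without IMQ_Veh replicate 1, 1 without IMQ_Troglitazone replicate 1 or 3, and 4 without IMQ_Veh replicate 3. Against UTX_Veh, 8 members were higher and none lower in IMQ_GW3965, where 50.2% of genes changed (28.7% higher, 21.5% lower), and likewise in IMQ_Troglitazone, where 45.3% did (26.5% higher, 18.8% lower). Il1r2 and Il33 were the members that did not pass in either.

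**Figure D2:**
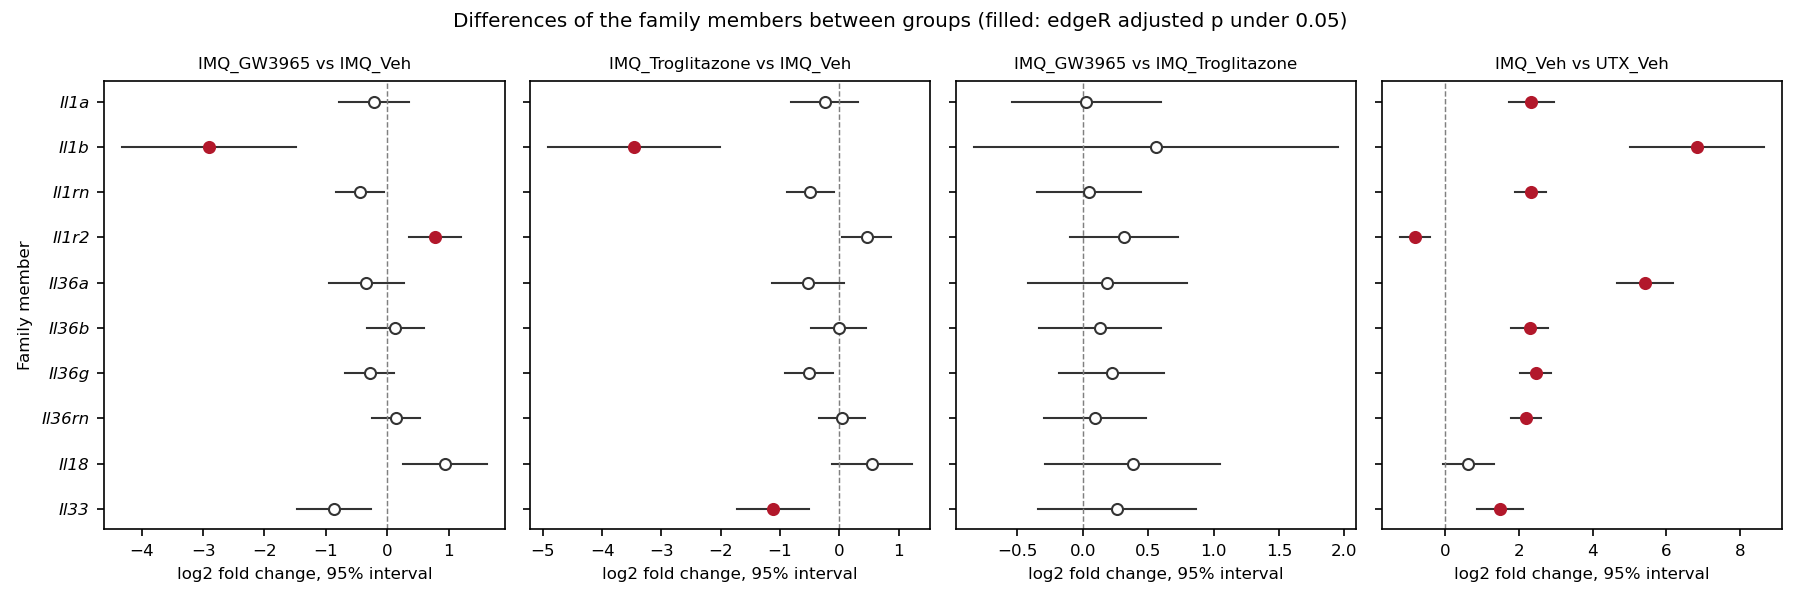
Log2 fold change of each gene (horizontal axis) with its 95% interval in 4 comparisons, filled where the edgeR adjusted p is under 0.05. Il1b stands at -2.90 with GW3965 and -3.46 with troglitazone against IMQ_Veh, every interval between the drugs crosses 0, and 9 of 10 members are filled for IMQ_Veh against UTX_Veh.

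GW3965 and troglitazone are not structural analogs and were given at different doses, so their direct comparison sets 2 treatments side by side. No member passed it by edgeR, DESeq2 or limma-voom, none had an unadjusted edgeR p under 0.05, and 1.86% of all genes passed by edgeR (1.08% higher, 0.782% lower). The interval of the difference, IMQ_GW3965 over IMQ_Troglitazone, was widest for Il1b, at log2 0.56 (95% interval -0.83 to 1.95). It was 0.38 (-0.29 to 1.05) for Il18, 0.26 (-0.34 to 0.86) for Il33 and 0.32 (-0.10 to 0.73) for Il1r2. For Il36a, Il36b, Il36g and Il36rn it was 0.19 (-0.42 to 0.80), 0.13 (-0.33 to 0.60), 0.22 (-0.18 to 0.62) and 0.10 (-0.29 to 0.49). For Il1a and Il1rn it was 0.03 (-0.54 to 0.60) and 0.05 (-0.35 to 0.44). These intervals leave room for differences of the sizes they span.

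Per unit of length, the family's makeup shifted. In TPM, Il36rn led in IMQ_GW3965 (439.7 ± 37.8) and IMQ_Troglitazone (524.0 ± 41.8, SD, n = 3), and in UTX_Veh (117.1 ± 2.85). TPM are not scaled by TMM, so their means are not compared between groups here. Il36rn had 443.7 TPM but 681.4 CPM in IMQ_GW3965 replicate 3, where 1 feature took 11.6% of counts. Its CPM means, 586.5 in IMQ_GW3965 and 548.5 in IMQ_Troglitazone, ran in the reverse order. In IMQ_Veh, Il36a at 413.3 ± 122.2 TPM and Il36rn at 400.8 ± 97.0 TPM did not differ beyond their spread. Il1b held 1.15% of the members' summed TPM in IMQ_GW3965, 0.902% in IMQ_Troglitazone, 7.86% in IMQ_Veh and 0.370% in UTX_Veh, and was the lowest member in all of these but IMQ_Veh. Il1r2 held 4.32%, 3.76% and 2.26% in IMQ_GW3965, IMQ_Troglitazone and IMQ_Veh, and 19.4% in UTX_Veh, where it ranked behind Il36rn alone.

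Ratios of TPM within a library describe the balance of agonist and antagonist mRNA, with no test. Il1b over Il1a was 0.556, 0.375 and 0.455 in IMQ_GW3965, 0.584, 0.304 and 0.0521 in IMQ_Troglitazone, 2.6, 2.25 and 4.4 in IMQ_Veh, and 0.305, 0.0381 and 0.0927 in UTX_Veh. Il1b exceeded Il1a in the IMQ_Veh libraries and in no other. The antagonist Il1rn over the sum of Il1a and Il1b was 2.52, 3.07 and 2.3 in IMQ_GW3965, 3.0, 2.91 and 4.64 in IMQ_Troglitazone, 1.27, 1.39 and 0.875 in IMQ_Veh, and 3.74, 3.82 and 4.49 in UTX_Veh. IMQ_Veh lay below all other libraries in this ratio. The ratio depends on the Il1rn transcript length given, 1478.64 to 1587.18 bases in IMQ_Troglitazone and 1670.06 to 1768.76 bases in IMQ_Veh. In those 2 groups Il1rn averaged 206.2 and 211.6 TPM, beside 189.5 and 266.4 CPM. Il36rn over the sum of Il36a, Il36b and Il36g was 0.874, 0.733 and 0.67 in IMQ_GW3965, 0.757, 0.762 and 0.874 in IMQ_Troglitazone, 0.523, 0.532 and 0.619 in IMQ_Veh, and 1.14, 1.11 and 1.26 in UTX_Veh. Antagonist mRNA exceeded the summed agonist mRNA in UTX_Veh libraries and in no imiquimod library. Il33 over Il18 was above 0.95 in the IMQ_Veh libraries (0.972, 2.1 and 1.14) and at most 0.828 elsewhere.

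**Figure D3:**
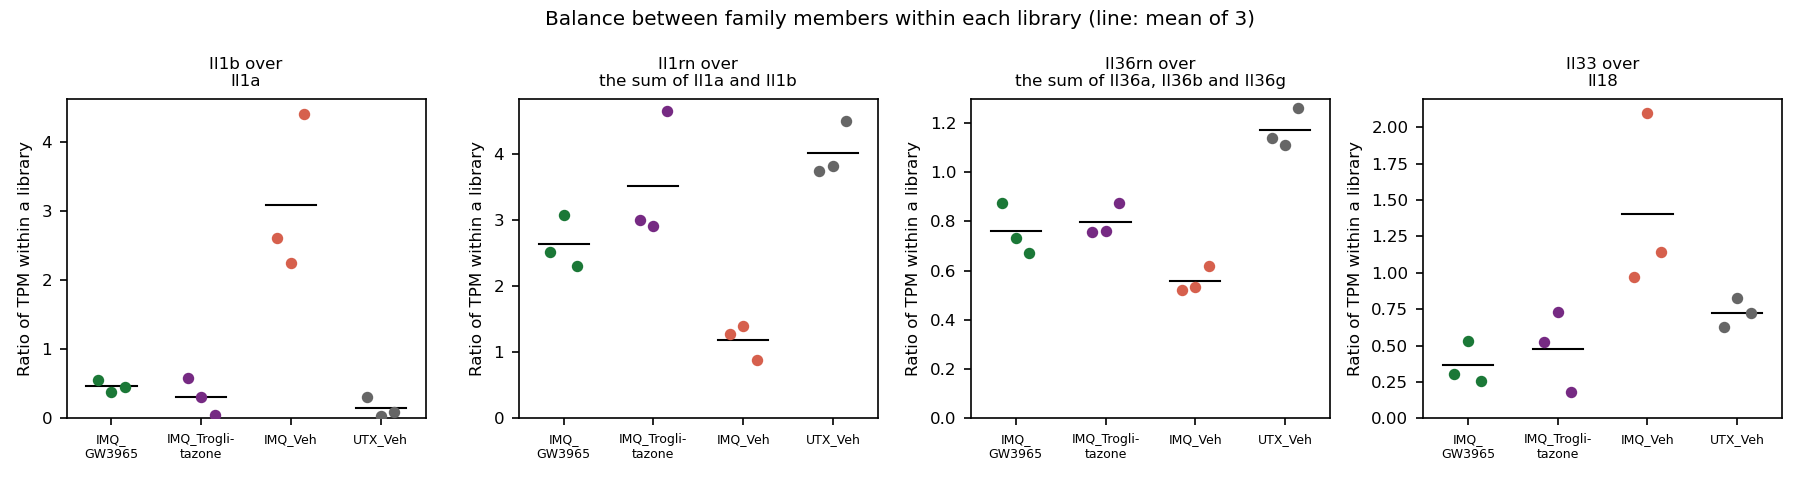
Ratios of TPM between members within each library (vertical axis from 0), by group, with dots for libraries and a line at the mean of 3. IMQ_Veh is highest for Il1b over Il1a (2.25 to 4.4) and lowest for Il1rn over Il1a and Il1b (0.875 to 1.39), and UTX_Veh is highest for Il36rn over the IL-36 agonists (1.11 to 1.26).

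Neutrophils and monocytes are known sources of IL-1β, and the summed neutrophil markers were highest in IMQ_Veh, as Il1b was. The 9 neutrophil markers summed to 27.03 to 57.72 CPM in IMQ_GW3965, 32.18 to 60.74 CPM in IMQ_Troglitazone, 100.4 to 107.4 CPM in IMQ_Veh and 5.35 to 7.43 CPM in UTX_Veh. Of the 9, 6 were tested. All 6 were higher in IMQ_Veh than in UTX_Veh, beside 33% of all genes. With each drug 2 were lower than in IMQ_Veh, beside 2.88% (GW3965) and 4.65% (troglitazone) of all genes. Mmp8, Retnlg, Fpr1 and Trem1 had at most 8 expected counts in any UTX_Veh library. They passed the filter on low counts through imiquimod libraries, so their rise was close to fixed in advance. Cxcr2 (41.93 to 53.6 CPM) and Csf3r (31.69 to 39.53 CPM) were the largest parts of the IMQ_Veh sum. The defining marker Ly6g had at most 6 expected counts in any library, Camp had at most 3, and Fpr1 and Ngp had 0 in all UTX_Veh libraries. IMQ_Troglitazone replicate 3 had both the lowest neutrophil sum and the least Il1b of its group. In IMQ_GW3965, replicate 1 had the lowest sum (27.03 CPM, beside 50.36 CPM in replicate 2). It had the least Il1b only narrowly (11.89 against 12.06 CPM), and in TPM replicate 2 had less (13.67 against 15.22). IMQ_Veh ran the other way. Its replicate 3 had the most Il1b (138.5 CPM) and the lowest neutrophil sum (100.4 CPM), and its replicate 2 the least Il1b (107.0 CPM) and the highest sum (107.4 CPM). The 9 monocyte and macrophage markers summed to 420.0 to 602.3 CPM in IMQ_GW3965, 563.7 to 677.1 CPM in IMQ_Troglitazone, 364.1 to 803.2 CPM in IMQ_Veh and 223.9 to 316.9 CPM in UTX_Veh, so the 3 imiquimod groups overlapped. Of the 9, 8 were higher in IMQ_Veh than in UTX_Veh and 2 were lower with each drug than in IMQ_Veh, beside the same shares of all genes. Ccr2, a receptor gene of recruited monocytes, was at 9.77 to 13.45 CPM in IMQ_GW3965, 13.79 to 21.39 CPM in IMQ_Troglitazone and 37.4 to 63.6 CPM in IMQ_Veh, with no overlap of IMQ_Veh with either drug. The same held for Cd14, at 12.75 to 16.83, 7.86 to 15.28 and 37.4 to 46.6 CPM in those groups. Other markers of this list ran the other way on average, with overlapping ranges and without passing the test. Adgre1 averaged 98.07, 88.39 and 65.6 CPM in IMQ_GW3965, IMQ_Troglitazone and IMQ_Veh, and C1qa 110, 104.5 and 76.83 CPM. The part of these cells in the Il1b differences was not tested. Summed sebaceous gland markers (6 genes) were 748.4 to 996.9 CPM in IMQ_GW3965, 595.9 to 736.4 CPM in IMQ_Troglitazone, 276.4 to 669.8 CPM in IMQ_Veh and 582.9 to 657.4 CPM in UTX_Veh, with no overlap between IMQ_GW3965 and IMQ_Veh. Summed skeletal muscle markers (6 genes) were 3274 to 4515 CPM in IMQ_GW3965, 2046 to 2925 CPM in IMQ_Troglitazone, 561.7 to 2926 CPM in IMQ_Veh and 5860 to 6753 CPM in UTX_Veh, and IMQ_Veh was the lowest group in these sums on average, as it was for Il1r2. The part of these tissues in the Il1r2 and Il18 differences was not tested.

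**Figure D4:**
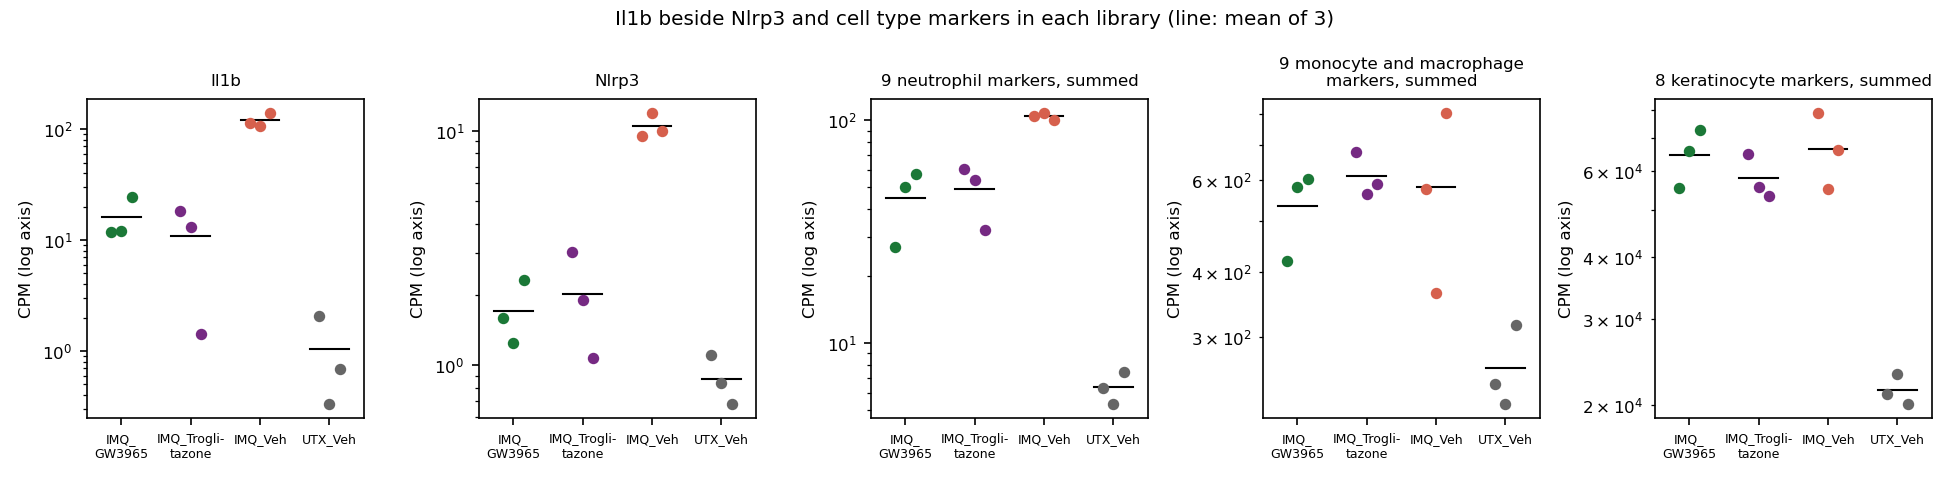
Il1b, Nlrp3 and the summed markers of 3 cell types in CPM (vertical log axes) in the 12 libraries, by group, with dots for libraries and a line at the mean of 3. Neutrophil markers stand at 100.4 to 107.4 CPM in IMQ_Veh and 27.03 to 60.74 CPM with the drugs, while keratinocyte markers overlap among the imiquimod groups.

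Of the genes that process the cytokines, 11 of 17 tested inflammasome and pyroptosis genes rose and 1 fell in IMQ_Veh against UTX_Veh (33% of all genes tested were higher and 28.9% lower). Nlrp3, the sensor of the inflammasome that activates caspase-1, had 1.58, 1.25 and 2.30 CPM in IMQ_GW3965, 3.05, 1.89 and 1.07 CPM in IMQ_Troglitazone, 9.49, 11.86 and 10.02 CPM in IMQ_Veh, against 1.10, 0.84 and 0.68 CPM in UTX_Veh. It rose 11.9-fold in IMQ_Veh (log2 3.57 ± 0.36, edgeR adjusted p = 1.04e-05), and was 6.18-fold lower with GW3965 and 5.22-fold lower with troglitazone (log2 -2.63 ± 0.34 and -2.38 ± 0.33, edgeR adjusted p = 0.00469 and 0.00676). IMQ_Veh overlapped no other group. Gsdma and Gsdmc, which encode pore-forming gasdermins, and Pycard, which encodes the inflammasome adaptor ASC, rose by log2 1.77 ± 0.12, 4.17 ± 0.46 and 0.90 ± 0.10. With GW3965, Nlrp3 and Mefv, the pyrin gene (log2 -2.17 ± 0.51, edgeR adjusted p = 0.0314), were the 2 of 17 that fell, and with troglitazone Nlrp3 was the 1 that fell (2.88% and 4.65% of all genes were lower). Casp1, the gene of caspase-1 itself, had 20.1 ± 6.28 CPM in IMQ_GW3965, 14.8 ± 2.64 CPM in IMQ_Troglitazone, 18.7 ± 5.41 CPM in IMQ_Veh and 9.10 ± 0.29 CPM in UTX_Veh (SD, n = 3), and rose by log2 1.04 ± 0.25 in IMQ_Veh against UTX_Veh (edgeR adjusted p = 0.00376).

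Among proteases that cut IL-1 family cytokines and their inhibitors, 8 of 14 tested rose in IMQ_Veh against UTX_Veh and none fell, beside 33% higher and 28.9% lower over all genes. Slpi, an inhibitor of neutrophil elastase, rose by log2 6.42 ± 0.38 (edgeR adjusted p = 5.09e-07), and the epidermal kallikrein gene Klk7 by 1.90 ± 0.12 (edgeR adjusted p = 7.63e-07). Serpinb1a, another inhibitor of neutrophil proteases, rose 2.46-fold, and was the 1 of 14 lower with GW3965 (log2 -0.51 ± 0.11, edgeR adjusted p = 0.0271) and with troglitazone (log2 -0.75 ± 0.11, edgeR adjusted p = 0.00790). Over all genes 2.88% and 4.65% were lower.

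Of 9 genes tested on the receptor and decoy list, 3 rose and 3 fell in IMQ_Veh against UTX_Veh. These counts are close to the 33% higher and 28.9% lower over all genes. The list also holds the cytokine gene Il1f10, 1 of the 3 that fell. The IL-36 receptor gene Il1rl2 was 2.01-fold higher (log2 1.01 ± 0.09, edgeR adjusted p = 3.64e-06), and Il18rap, which encodes the accessory chain of the IL-18 receptor, was 9.55-fold higher (log2 3.26 ± 0.43, edgeR adjusted p = 6.81e-05). Il1f10, which encodes IL-38, and Sigirr, which encodes an inhibitory receptor, were 5.66-fold and 2.47-fold lower (edgeR adjusted p = 0.000126 and 0.00125). Il1r1, the signalling IL-1 receptor gene, rose by log2 0.37 ± 0.14 (edgeR adjusted p = 0.0418), and its partner Il1rap and the ST2 gene Il1rl1 differed by 0.09 ± 0.14 and 0.19 ± 0.37 (edgeR adjusted p = 0.599 and 0.679). Il18rap had 1.27, 2.08 and 2.64 CPM in IMQ_GW3965, 3.05, 4.70 and 2.01 CPM in IMQ_Troglitazone, 11.31, 18.26 and 6.61 CPM in IMQ_Veh, against 1.49, 0.92 and 1.37 CPM in UTX_Veh. It was the 1 of these 9 that fell with either drug, where 2.88% (GW3965) and 4.65% (troglitazone) of all genes were lower (log2 -2.62 ± 0.42 with GW3965 and -1.90 ± 0.40 with troglitazone, edgeR adjusted p = 0.00942 and 0.0182).

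Downstream, 14 of 22 MyD88 signalling genes rose and 1 fell in IMQ_Veh against UTX_Veh, where 33% of all genes were higher and 28.9% lower. Those that rose included Myd88 (log2 1.58 ± 0.18), the kinase gene Irak4 (0.98 ± 0.10), its inhibitory relative Irak3 (1.28 ± 0.13) and Nfkbiz (2.64 ± 0.26), which encodes the NF-κB cofactor IκBζ. With GW3965, 3 of 22 fell, beside 2.88% of all genes: Ikbkb, Irak4 and Nfkbia (log2 -0.36 ± 0.07, -0.36 ± 0.10 and -0.64 ± 0.17, edgeR adjusted p = 0.0163, 0.0472 and 0.0479). With troglitazone, Nfkbia fell (log2 -0.68 ± 0.17, edgeR adjusted p = 0.0346) and Tab2 rose (0.30 ± 0.08, edgeR adjusted p = 0.0433), beside 4.65% of all genes lower and 4.69% higher.

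Of 16 listed genes known to respond to IL-1 or IL-36, 15 were tested. All 15 rose in IMQ_Veh against UTX_Veh, with a median log2 of 5.43, where 33% of all genes were higher. Csf3, Cxcl5, Cxcl3, Il6 and Ccl4 averaged 0, 0.0139, 0.0262, 0.0405 and 0.0786 CPM in UTX_Veh. They passed the filter on low counts through imiquimod libraries, so their rise was close to fixed in advance. The count and the median are therefore no test of the list. With GW3965, 5 of the 15 fell and 1 rose against IMQ_Veh, and with troglitazone 7 fell and none rose. Over all genes, 2.88% were lower and 3.71% higher with GW3965, and 4.65% lower and 4.69% higher with troglitazone. Cxcl2, a neutrophil chemokine gene, had 5.11, 3.33 and 14.33 CPM in IMQ_GW3965, 7.62, 4.70 and 0.57 CPM in IMQ_Troglitazone, 57.48, 51.43 and 40.72 CPM in IMQ_Veh, against 0.75, 0.25 and 0.04 CPM in UTX_Veh. IMQ_Veh overlapped no other group. With troglitazone Cxcl2 fell by 3.54 ± 0.71, its relative Cxcl3 by 3.46 ± 0.62 and Ptgs2, the cyclooxygenase-2 gene, by 1.94 ± 0.35 on the log2 scale (edgeR adjusted p = 0.0159, 0.0126 and 0.0126). With GW3965, Cxcl3 fell by 2.90 ± 0.61, Ccl3 by 2.42 ± 0.49 and Ptgs2 by 1.90 ± 0.35 (edgeR adjusted p = 0.0225, 0.0211 and 0.0163). Tslp, an epithelial cytokine gene of type 2 immunity, was the 1 that rose with GW3965, with 10.49, 8.94 and 6.96 CPM in IMQ_GW3965 and 3.89, 3.22 and 4.51 CPM in IMQ_Veh (log2 1.19 ± 0.23, edgeR adjusted p = 0.0182). No gene of these 5 lists passed between the drugs by edgeR.

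Over the 12 libraries, which fall into 4 groups and share them in every such comparison, the pattern of log2 CPM most like each member was sought among 13644 genes and is given as Pearson r, with no test. Il1b was closest to Cxcl3 (r = 0.981), Cxcl2 (0.981) and Bcl2a1b (0.981). Il1r2 was closest to Insig2 (0.979), Cab39l (0.966) and Tsc22d3 (0.955). Among the IL-36 genes, Il36a was closest to Glrx (0.997), Blmh (0.997) and Ephx3 (0.997), Il36b to Tmprss13 (0.993), Otub2 (0.993) and Casp14 (0.992), Il36g to Cnfn (0.997), Tmem50b (0.996) and Ippk (0.995), and Il36rn to Gsdma (0.995), Krt1 (0.994) and Twf1 (0.994). Il1a was closest to Eprs (0.991), Arcn1 (0.991) and Tmem165 (0.989), and Il1rn to Csnk1a1 (0.996), Degs1 (0.995) and H2afx (0.994). Il18 was closest to Oser1 (0.979), Yod1 (0.977) and Kctd4, and Il33 was close to Cxcl5 (0.935) and Homer3 (0.933). Between members, the agonist Il36b and the antagonist Il36rn ran closest (r = 0.999), and Il1b had r = 0.861 with Il36g, 0.827 with Il33, 0.202 with Il18 and -0.751 with Il1r2.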

How the data were processed

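RNA came from a mirVana isolation with DNase treatment and TruSeq stranded mRNA libraries, per the labels. Among the tools in the submitters' processing notes are STAR 2.7.3a and RSEM 1.3.3 on GRCm38, with annotation release and strand setting not given in the sources used here. For each library the authors deposited 1 RSEM table per library with expected counts, which divide multiply mapped reads among genes, and with TPM. Per the file headers, a mean transcript length is also given. Symbols and coordinates came from GENCODE M21, which matched 52083 of 55416 identifiers.

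Expected counts were rounded and analysed in R 4.3.3 with edgeR 4.0.16 (filterByExpr by group, TMM, glmQLFit and glmQLFTest, 1 fit of 12 libraries, 8 residual degrees of freedom). The self-made code was tested on simulated data. TPM were used as deposited. Members, 5 pathway lists and 11 marker lists were chosen with earlier results of these data known. The text names all members, up to 4 passing genes per list and comparison with the smallest adjusted p, 3 genes most like each member (mean of at least 1 CPM; for Il33, 1 of the 3 is not reported here), and, chosen after their values were seen, Casp1, Il1r1, Il1rap and Il1rl1. Alternatives, run for the members, were upper-quartile and RLE scaling, limma-voom (limma 3.58.1), DESeq2 1.42.0, 2 other filters, fits of 2 groups, the replicate block, the lane field (L001 or L009), both, no ENSMUSG00000119584 and Lars2, and leaving out libraries. The labels do not explain the lane field. Under each of its values some groups had only 1 library, so no test within a value was made. Same-numbered libraries deviated together (r of deviations from group means) in IMQ_Veh and UTX_Veh (0.119 to 0.394) and in IMQ_Troglitazone and IMQ_Veh (0.123 to 0.286). In UTX_Veh and IMQ_Troglitazone r was 0.05 to 0.101, and in comparisons with IMQ_GW3965 it was -0.281 to 0.162. Libraries with different numbers were not compared, so whether the numbers pair samples is not known. The main fit used no replicate block. Replicates always differed by more than sampling noise (lowest chi-square per degree of freedom 8.34).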

Additional observations from a re-analysis of the deposited data

How the results depend on the processing

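Across 1080 member values under the alternatives, 1008 kept their direction and side of the threshold, 20 lost the call, 20 gained it and 32 changed sign, none of these called. The replicate block changed no call in IMQ_Veh against UTX_Veh or in IMQ_Troglitazone against IMQ_Veh. In IMQ_GW3965 against IMQ_Veh, Il33 passed with it (log2 -0.94, edgeR adjusted p = 0.0453) and with the lane field added (-0.79, 0.0473). The number of members changed in IMQ_GW3965 against IMQ_Veh, 2, was 4 by DESeq2, 4 with no filter, 1 with only the 2 groups, 0 with the lane field, 4 without replicate 3 of both IMQ_Veh and IMQ_GW3965 and 0 to 4 leaving out libraries singly. In IMQ_Troglitazone against IMQ_Veh, 2 became 0 with only the 2 groups, 4 without those 2 libraries and 0 to 4 leaving out libraries singly; the cause was not tested. Against UTX_Veh the counts were 9 to 10 for IMQ_Veh, 8 to 9 for IMQ_GW3965 and 7 to 9 for IMQ_Troglitazone. All genes called in IMQ_GW3965 against IMQ_Veh numbered 1129, but 154 without IMQ_Veh replicate 1, 3645 without IMQ_Veh replicate 3 and 105 without IMQ_GW3965 replicate 1. In IMQ_Troglitazone against IMQ_Veh they numbered 1600, but 162 without IMQ_Veh replicate 1, 4460 without IMQ_Veh replicate 3 and 252 without IMQ_Troglitazone replicate 3. Calls of the pathway and marker genes were not examined in these fits.

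Differences near 0 changed sign. Il36b in IMQ_Troglitazone against IMQ_Veh (log2 -0.006) was 0.003 by RLE, 0.002 by DESeq2, 0.033 by limma-voom, 0.024 with no filter, 0.003 with the replicate block, 0.021 with the lane field, 0.043 with both, 0.045 without those 2 libraries, 0.009 without ENSMUSG00000119584 and Lars2, and -0.202 to 0.211 leaving out libraries singly. Il36rn there was -0.115 to 0.249. In IMQ_GW3965 against IMQ_Veh, leaving out libraries singly gave Il1a -0.580 to 0.026, Il36b -0.079 to 0.335 and Il36rn -0.029 to 0.335. Between the drugs, Il1a was -0.052 by limma-voom, and without those 2 libraries Il1a was -0.350, Il1rn -0.107, Il36a -0.112, Il36b -0.024 and Il36rn -0.033. Leaving out libraries singly gave the same lows between the drugs, with highs of 0.271, 0.234, 0.445, 0.283 and 0.214, and Il33 -0.098 to 0.443.

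Upper-quartile scaling set the median log2 of all genes at -0.114 in IMQ_Veh against UTX_Veh, and moved the share of calls that were higher to 45% there (53.3% with TMM), 47.2% in IMQ_GW3965 (57.2% with TMM) and 44.7% in IMQ_Troglitazone (58.5%) against UTX_Veh. No member's call changed with it. In IMQ_GW3965 against IMQ_Troglitazone, RLE scaling moved that share to 49.1% (58% with TMM). Depth limited Il1b most, with 8 to 53 expected counts in UTX_Veh.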

Other observations

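The mean transcript length that the tables give for a gene, weighted by its transcripts, differed for Il36rn, which has 7 annotated transcripts there. It was 1711.52 to 1789.95 bases in IMQ_GW3965, 1688.4 to 1734.95 bases in IMQ_Troglitazone, 1726.11 to 1859.64 bases in IMQ_Veh and 1907.18 to 1938.39 bases in UTX_Veh, so every imiquimod library was below every UTX_Veh library. For Il1rn, with 6 transcripts, it was 1657.93 to 1922.68 bases in IMQ_GW3965, 1478.64 to 1587.18 bases in IMQ_Troglitazone, 1670.06 to 1768.76 bases in IMQ_Veh and 1495.22 to 2091.29 bases in UTX_Veh, whose replicates spanned the ranges of IMQ_Veh and IMQ_GW3965. These values were not tested and rest on RSEM's division of reads among transcripts.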
